A study of Mus musculus with 4 samples.

Results

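The Ikaros family comprises 5 zinc finger genes, Ikzf1 (Ikaros), Ikzf2 (Helios), Ikzf3 (Aiolos), Ikzf4 (Eos) and Ikzf5 (Pegasus), and it was followed here in nuclei of mouse bone marrow hematopoietic stem and progenitor cells (HSPCs). The members were the 5 of 32272 gene rows with these symbols, together with 86 of 174339 chromatin peaks that lay within 50 kb of a member's listed transcription starts. Of these peaks, 28 lay near Ikzf1, 9 near Ikzf2, 19 near Ikzf3, 21 near Ikzf4 and 9 near Ikzf5. Lineage-negative, cKit-positive bone marrow cells came from adult male wild type C57BL/6 mice that carried silk ligatures on their molars, a model of periodontitis (Lig; mice pooled), or had none (Ctrl), both at day 14. Each group held 1 RNA and 1 ATAC sample from the same nuclei (10x multiome), without replicates. Nuclei of both groups stood in 1 matrix under barcode suffixes 1 and 2, the labels do not say which suffix belongs to which group, and the suffixes are here called library 1 and library 2. No comparison between Lig and Ctrl was made.

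Ikaros proteins bind DNA through zinc fingers near one end and pair with each other through zinc fingers at the other end. They recruit the nucleosome remodelling and deacetylase (NuRD) complex and other corepressors, and can also sustain active genes. Ikaros is known as a regulator of lymphoid priming and of B and T cell development, Helios as a factor of stem cells and regulatory T cells, and Aiolos as a factor of later B, plasma and NK cells. Eos is best known from regulatory T cells, and Pegasus is the most divergent and broadly expressed member.

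Values were summed per class of nuclei. After filtering, library 1 held 5905 nuclei with 10294527 unique molecular identifiers (UMIs) and library 2 held 7714 nuclei with 12537328 UMIs, with medians of 1641 and 1516.5 UMIs per nucleus. Clustering without the members and their peaks gave 13 classes that could be named from lists of markers: stem-like (HSC), lymphoid-primed (LMPP), granulocyte-monocyte (GMP), neutrophil (NeuP), monocyte (cMoP), conventional and plasmacytoid dendritic (cDCP, pDCP), basophil (BaP), megakaryocyte (MkP), erythroid (EryP), pro-B, B and pro-NK/T. They covered 62.4% and 52.6% of the nuclei, and each is written with "-like", since the names rest on RNA markers. The sort marker itself was low in some classes: Kit had 38.1 and 26.1 CPM, which are UMIs scaled to a total of 1000000 in each class and library, in B-like nuclei and 38.4 and 35.0 in NeuP-like nuclei, against 337 and 182 in HSC-like nuclei (library 1, then library 2, an order kept below), and it was at most 51.4 CPM in cMoP-like, cDCP-like and pDCP-like nuclei. B-like nuclei were led by Iglc1, Jchain, Igha and Ms4a1, which are genes of mature and antibody-secreting B cells, although the lineage antibodies in the study's methods include one against B220, which should remove B cells. Between the libraries, 72 kept barcode sequences were shared. All intervals are 95% intervals for counting error only, exact Poisson for levels, and ATAC intervals are computed on pairs of counts.

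**Figure D1:**
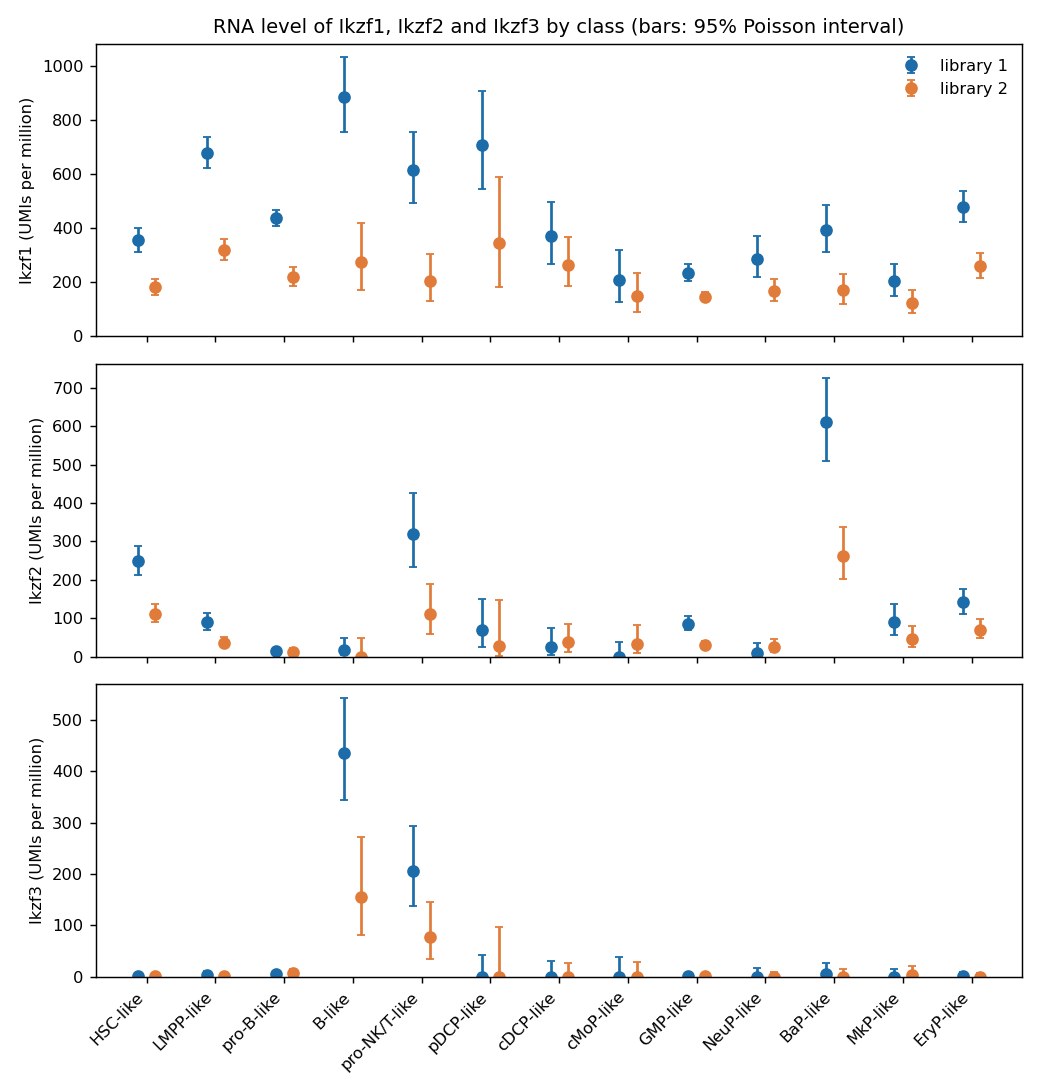
RNA levels of Ikzf1, Ikzf2 and Ikzf3 in CPM (y axes, linear from 0) in the 13 named classes (x axis); points are the 2 libraries and bars are 95% Poisson intervals. Ikzf1 was present in every class, Ikzf2 peaked in BaP-like nuclei at 610 and 263, and Ikzf3 stood out in the B-like and pro-NK/T-like classes.

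Ikzf1 was the most abundant member in both libraries. Over all kept nuclei it reached 373 CPM (3842 UMIs, interval 361 to 385) in library 1 and 171 CPM (2138 UMIs, 163 to 178) in library 2. Ikzf2 followed with 73.2 (754 UMIs) and 33.7 CPM (423 UMIs), Ikzf3 with 12.5 (129 UMIs) and 3.03 (38 UMIs), Ikzf5 with 11.2 (115 UMIs) and 7.90 (99 UMIs), and Ikzf4 with 1.17 (12 UMIs) and 1.67 (21 UMIs). Nuclear RNA holds unspliced transcripts, so long genes collect more UMIs, and the members span from 15.1 kb (Ikzf4) to 156 kb (Ikzf2). Per kb of gene span, Ikzf1 remained the highest at 4.24 and 1.94 CPM per kb. Ikzf5, which spans 21.9 kb, then stood at 0.511 and 0.361 CPM per kb, above Ikzf2 at 0.469 and 0.216 in both libraries. Ikzf3 had 0.154 and 0.0374 and Ikzf4 0.0769 and 0.111 CPM per kb.

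Ikzf1 (ENSMUSG00000018654, chr11:11685003-11772926, plus strand, GRCm38) was detected in all 13 classes, and its highest levels lay in B-like, pDCP-like, LMPP-like and, in library 1, pro-NK/T-like nuclei. LMPP-like nuclei held 679 CPM (interval 623 to 739, 531 UMIs) and 318 CPM (281 to 359, 265 UMIs), against 348 and 160 CPM in the other nuclei, a log2 ratio of 0.96 (0.83 to 1.10) and 0.99 (0.80 to 1.18). These ratios agree between the libraries within counting error. pDCP-like nuclei held 709 CPM (62 UMIs) and 345 CPM (13 UMIs), log2 ratios of 0.94 and 1.02. In B-like nuclei Ikzf1 was the highest of all classes in library 1, at 888 CPM (757 to 1035, 163 UMIs), but reached 274 CPM (170 to 419, 21 UMIs) in library 2. The log2 ratio over the other nuclei was 1.29 (1.05 to 1.51) in library 1 and 0.69 in library 2, where its interval, -0.01 to 1.30, includes 0. Pro-NK/T-like nuclei held 614 CPM (492 to 758) and 205 CPM (132 to 306), the second near the 170 CPM of the other nuclei.

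Among the named classes, the lowest Ikzf1 levels lay in MkP-like nuclei, at 203 (149 to 269) and 122 CPM (84.8 to 171). Next came cMoP-like nuclei, at 208 and 151 CPM, and GMP-like nuclei, at 234 (205 to 266) and 145 CPM (129 to 164), whose order differed between the libraries. Some clusters that could not be named were low as well. One of 2321 nuclei held 242 (220 to 267) and 126 CPM (112 to 141). Another, of 1776 nuclei, held 239 (210 to 271) and 127 CPM (113 to 143). Without correction between libraries the GMP-like class held 61 and 711 nuclei instead of 528 and 1071. Its Ikzf1 ratio was then lower in both libraries, with values in the closing section. Erythroid progenitors were not among the low classes: EryP-like nuclei held 479 CPM (424 to 539) and 259 CPM (216 to 308), above the other nuclei by 0.38 (0.20 to 0.56) and 0.64 (0.37 to 0.89) on the log2 scale. Pro-B-like nuclei stood at 437 and 219 CPM and HSC-like nuclei at 355 and 181. BaP-like nuclei had intervals of 312 to 486 and 121 to 231 CPM. The rest were cDCP-like nuclei at 370 and 265 and NeuP-like nuclei at 288 and 168. In neither library did any of the 12 neighbouring pairs of classes in this order have separate intervals. The top class lay above 10 of the other 12 in library 1 and above 2 in library 2. Some classes held few UMIs, so overlap of neighbours cannot show whether the levels form a gradient. After thinning each nucleus to 500 UMIs, the share of nuclei with an Ikzf1 UMI was 36.9% and 14.8% in B-like, 25.5% and 15.8% in LMPP-like and 10.8% and 6.55% in GMP-like nuclei. Without thinning these shares were 52.4% and 22.2%, 63.1% and 38.2%, and 32.2% and 21.4%.

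Ikzf2 (ENSMUSG00000025997, chr1:69531214-69687245, minus strand) had a different distribution, highest in basophil progenitors. BaP-like nuclei held 610 CPM (509 to 725, 129 UMIs) and 263 CPM (202 to 338, 62 UMIs), against 62.0 and 29.3 CPM in the other nuclei, log2 ratios of 3.30 (3.01 to 3.57) and 3.17 (2.75 to 3.56). With at least 500 genes per nucleus the ratios were 2.42 and 2.40, in a BaP-like class that then held 309 and 130 nuclei instead of 137 and 156. The interval of this class lay above those of all other 12 named classes in both libraries. HSC-like nuclei held 249 CPM (213 to 288) and 112 CPM (90.7 to 137), log2 ratios of 2.05 (1.79 to 2.29) and 2.0 (1.66 to 2.33). With at least 500 genes the ratios were 2.16 and 1.16, and at resolution 0.4 they were 1.54 and 1.45. Pro-NK/T-like nuclei held 318 CPM (232 to 425, 45 UMIs) and 111 CPM (59.2 to 190, 13 UMIs), which do not differ from the HSC-like levels beyond their intervals. EryP-like nuclei followed with 141 (112 to 175) and 70.4 CPM (49.0 to 97.8). MkP-like nuclei had 90.5 and 46.8 CPM, LMPP-like 89.5 and 36.0 and GMP-like 85.8 and 30.6, so that LMPP-like intervals lay below HSC-like ones for Ikzf2 and above them for Ikzf1.

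Ikzf2 was low in both B lineage classes, though not in these alone. Pro-B-like nuclei held 25 UMIs in 1054 nuclei and 9 UMIs in 518 nuclei, or 14.1 CPM (9.12 to 20.8) and 12.2 CPM (5.56 to 23.1), log2 ratios of -2.60 (-3.24 to -2.03) and -1.53 (-2.67 to -0.59). B-like nuclei held 3 UMIs (16.3 CPM) and 0 UMIs, the latter with an interval of 0 to 48.1 CPM. In NeuP-like nuclei Ikzf2 had 2 UMIs (9.59 CPM) and 11 UMIs (25.7 CPM), and in cMoP-like nuclei 0 and 4 UMIs. Both clusters joined as pro-B-like were low, at 13.6 and 9.55 CPM in the larger one and 17.4 and 26.8 CPM in the smaller one. Large clusters that could not be named were low as well. A cluster of 1776 nuclei held 9.61 and 9.73 CPM, and a cluster of 2321 nuclei held 26.3 and 10.1 CPM. Another unnamed cluster, of 663 nuclei, held 61.0 and 33.3 CPM.

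Ikzf3 (ENSMUSG00000018168, chr11:98464902-98546031, minus strand) was concentrated in nuclei of the B-like and pro-NK/T-like classes, with a low level in pro-B-like nuclei. B-like nuclei held 80 of all 129 Ikzf3 UMIs of library 1 and 12 of 38 in library 2, or 436 CPM (345 to 542) and 156 CPM (80.9 to 273). The other nuclei stood at 4.85 and 2.09 CPM, giving log2 ratios of 6.49 (5.96 to 7.03) and 6.23 (5.11 to 7.27). Pro-NK/T-like nuclei held 29 and 9 UMIs, or 205 CPM (137 to 294) and 77.0 CPM (35.2 to 146), log2 ratios of 4.38 (3.73 to 4.99) and 5.04 (3.78 to 6.16). Pro-B-like nuclei came next with 10 and 5 UMIs, or 5.64 CPM (2.70 to 10.4) and 6.75 CPM (2.19 to 15.8), and no other named class passed 3 UMIs. Thinned to 500 UMIs, 21.8% and 7.41% of nuclei in the B-like class and 16.7% and 4.44% in the pro-NK/T-like class had an Ikzf3 UMI, against 0 of 526 and 0 of 1069 GMP-like nuclei, which allows up to 0.699% and 0.344% (exact binomial). Unthinned, the shares were 30.4% and 11.1%, 22.0% and 7.78%, and 0.189% and 0.187%, at median depths of 800 and 821 UMIs in B-like, 1127 and 1066 in pro-NK/T-like and 1754.5 and 1628 in GMP-like nuclei.

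Ikzf4 and Ikzf5 had few UMIs in every class. Ikzf4 (ENSMUSG00000002578, chr10:128630843-128645991, minus strand) had at most 3 UMIs in any named class, and its highest level, 14.1 and 17.1 CPM in pro-NK/T-like nuclei, rested on 2 UMIs in each library, with log2 ratios over the other nuclei of 3.84 (0.61 to 6.07) and 3.48 (0.34 to 5.54). Ikzf5 (ENSMUSG00000040167, chr7:131388652-131410521, minus strand) ranged from 0 to 25.2 CPM in library 1 and from 0 to 17.1 in library 2, with class medians of 12.1 and 7.94 CPM. Its HSC-like level was 17.0 (8.77 to 29.6) and 11.7 CPM (5.59 to 21.4), and its GMP-like level 9.19 (4.20 to 17.5) and 7.51 CPM (4.11 to 12.6), with overlapping intervals. For both genes the interval of the top class overlapped those of all other classes.

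**Figure D2:**
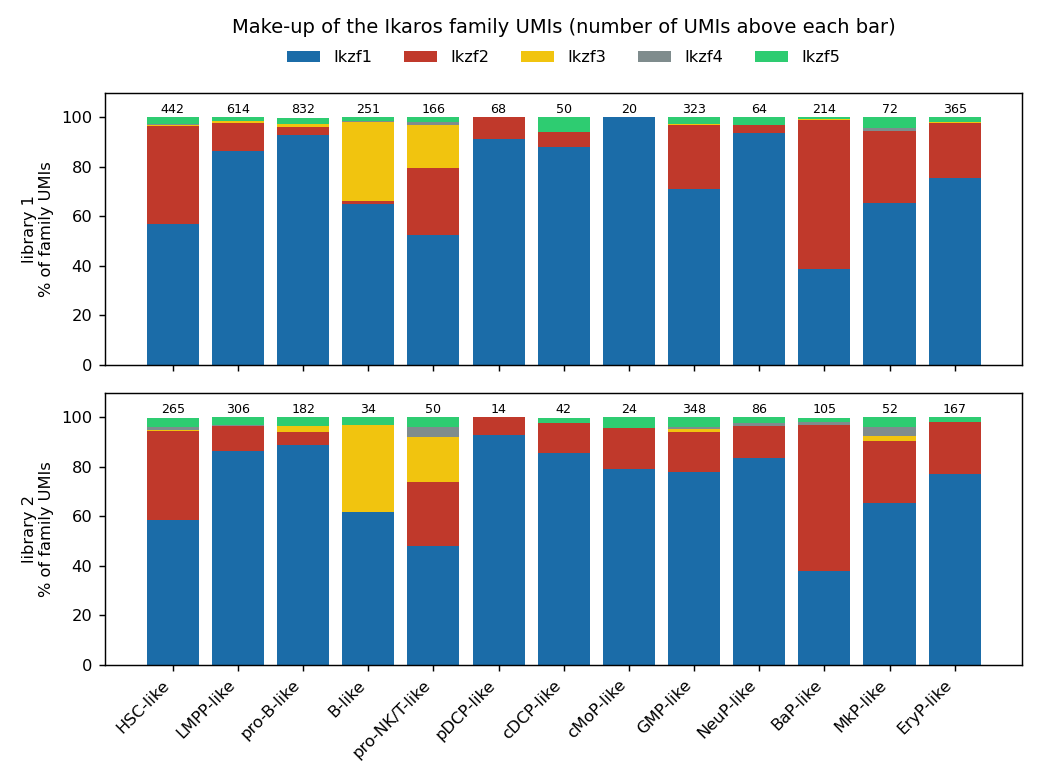
Share of each member among the family's UMIs (y axis, percent) by class (x axis) in library 1 (top) and library 2 (bottom), with the number of family UMIs above each bar. Ikzf2 made up 60.3% and 59.0% in BaP-like nuclei, and Ikzf3 31.9% and 35.3% in B-like nuclei.

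The make-up of the family per class does not depend on the scaling to all genes, but it does depend on gene length. By UMIs, Ikzf1 was the leading member in all named classes but the BaP-like one, where Ikzf2 made up 60.3% (interval 53.4 to 66.9, exact binomial, 214 family UMIs) and 59.0% (49.0 to 68.5, 105 UMIs). Per kb of gene span Ikzf1 led there too, with 4.46 and 1.93 CPM per kb against 3.91 and 1.69 for Ikzf2. Ikzf2 made up 39.8% (35.2 to 44.6) and 36.2% (30.4 to 42.3) in HSC-like nuclei but 11.4% (9.0 to 14.2) and 9.80% (6.71 to 13.7) in LMPP-like nuclei, so these 2 classes were separated in both libraries. At the coarser resolution of 0.4 no LMPP-like class could be named, and the share in HSC-like nuclei was 23.6% and 22.3%. In pro-B-like nuclei its share was 3.0% (1.95 to 4.4) and 4.95% (2.29 to 9.18). Ikzf3 supplied 31.9% (26.2 to 38.0) and 35.3% (19.7 to 53.5) in B-like nuclei and 17.5% (12 to 24.1) and 18.0% (8.58 to 31.4) in pro-NK/T-like nuclei. GMP-like nuclei differed between the libraries, with an Ikzf2 share of 26% (21.3 to 31.2) and 16.4% (12.6 to 20.7). This class depended on the correction between libraries: it held 528 and 1071 nuclei with it but 61 and 711 without it.

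A call was defined as a change of at least 2-fold against the other nuclei of the same library, in the same direction in both libraries, where 5 UMIs or more were expected in the class in both libraries. Ikzf2 was called higher in BaP-like, HSC-like and EryP-like nuclei, where 1.29%, 2.32% and 2.84% of all evaluated genes were called higher. In EryP-like nuclei its log2 ratios were 1.02 (0.67 to 1.36) and 1.13 (0.58 to 1.63), so both intervals reach below 2-fold. In pro-NK/T-like nuclei Ikzf2 could not be evaluated, since too few UMIs were expected. Its log2 ratios there were 2.19 (1.72 to 2.62) and 1.75 (0.83 to 2.54). Ikzf2 was called lower in pro-B-like nuclei, as were 4.68% of genes. Ikzf3 was called lower in GMP-like nuclei, with 1 and 3 UMIs, as were 3.83% of genes. Its log2 ratios were -3.75 (-9.06 to -1.25) and -1.03 (-3.37 to 0.64), so the interval of library 2 includes 0. For this gene the other nuclei held 128 and 35 UMIs. Of these, 80 and 12 came from the B-like class and 29 and 9 from the pro-NK/T-like one. This call therefore cannot show whether Ikzf3 was lower in GMP-like nuclei than in the remaining classes. Ikzf1 was not called in any class, and Ikzf3 could not be evaluated in the B-like and pro-NK/T-like classes, where too few UMIs were expected.

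All members but Ikzf4 had lower levels in library 2 when scaled to all UMIs. The log2 ratio of library 2 over library 1 was -1.13 (-1.21 to -1.05) for Ikzf1, -1.12 (-1.29 to -0.94) for Ikzf2, -2.05 (-2.61 to -1.52) for Ikzf3, -0.50 (-0.90 to -0.10) for Ikzf5 and 0.52 (-0.57 to 1.68) for Ikzf4. The median gene, over 10614 genes that reached 20 UMIs in both libraries, was itself at -0.63, and it was -0.88 for genes that span at least 50 kb, as Ikzf1, Ikzf2 and Ikzf3 do, against -0.53 for shorter genes. Of these genes, 10.6% lay below Ikzf1, 11.2% below Ikzf2, 0.311% below Ikzf3 and 61.3% below Ikzf5. Genes at the ribosomal RNA locus took 38.4% to 53.6% of the UMIs of named classes in library 1 and 51.5% to 60.9% in library 2, and without them the ratio was -0.85 for Ikzf1 and -0.84 for Ikzf2. With median-of-ratios scaling it was -0.50 for Ikzf1 and -0.49 for Ikzf2, and Ikzf5 turned to 0.13. For Ikzf3, the classes that carry it were also scarcer: B-like nuclei made up 3.23% and 1.05% and pro-NK/T-like nuclei 1.85% and 1.17% of kept nuclei. Within these classes the Ikzf3 ratio was still -1.48 (-2.49 to -0.59) in B-like and -1.41 (-2.67 to -0.29) in pro-NK/T-like nuclei. Ikzf1 ratios were -0.97 (-1.27 to -0.68) in HSC-like, -1.09 (-1.31 to -0.88) in LMPP-like and -0.69 (-0.95 to -0.43) in GMP-like nuclei, beside class medians of -0.65, -0.66 and -0.70. They were -1.70 (-2.43 to -1.04) in B-like, -1.58 (-2.30 to -0.91) in pro-NK/T-like and -1.04 (-2.03 to -0.16) in pDCP-like nuclei. Medians of these 3 classes are not set beside them, since few genes reached 20 UMIs in both libraries there and the limit keeps genes that are high in library 2. Ikzf2 was at -1.49 (-2.0 to -0.99) in GMP-like and -1.15 (-1.53 to -0.79) in HSC-like nuclei. With 1 library each and no link to a group, ligature, library preparation and depth cannot be told apart here.

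**Figure D3:**
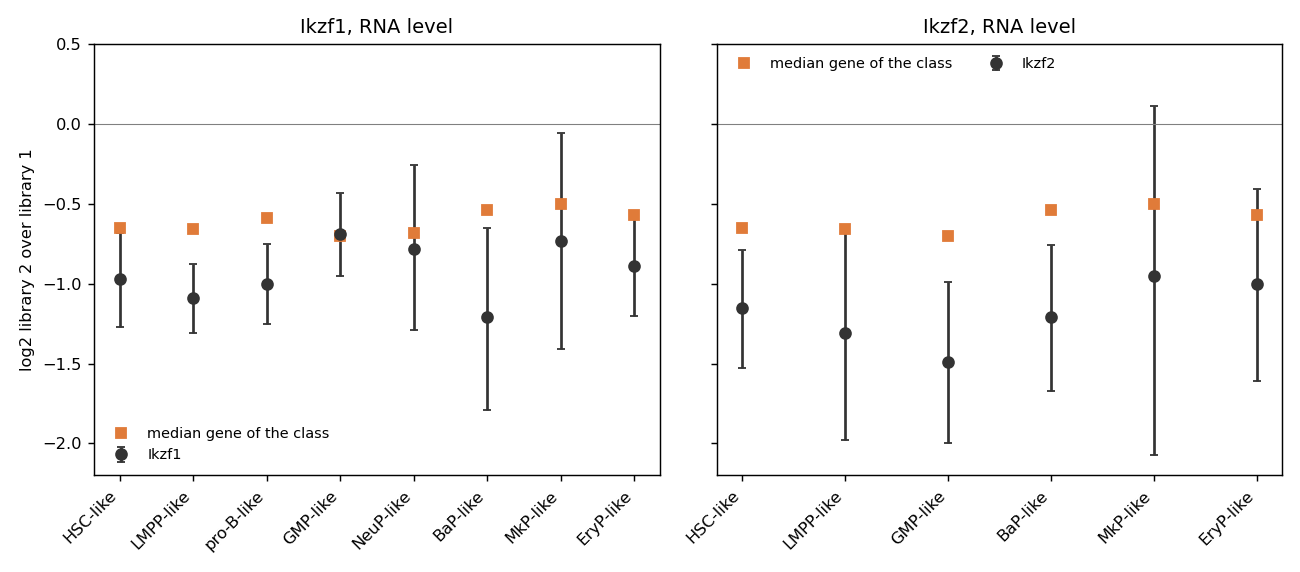
Log2 ratio of RNA level in library 2 over library 1 (y axis) for Ikzf1 (left) and Ikzf2 (right) in classes whose median rests on at least 500 genes and where the member had at least 10 UMIs in both libraries, which leaves out pro-B-like and NeuP-like nuclei for Ikzf2; black points carry 95% binomial intervals and orange squares are the median over genes that reached 20 UMIs in both libraries. In GMP-like nuclei Ikzf1 lay at the class median (-0.69 and -0.70) while Ikzf2 lay at -1.49.

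Single peaks of the Ikzf1 locus differed between classes more than the sum over the locus did. Peak values are ATAC CPM, peak counts scaled in the same way. The peak at the first start, chr11:11685558-11686378, was open in all classes: it ranged from 29.5 ATAC CPM in pro-NK/T-like to 79.1 in NeuP-like nuclei of library 1 and from 26.9 in pDCP-like to 68.0 in NeuP-like nuclei of library 2. It also lies within 1 kb of a start of Gm11999 on the same segment. Over all 28 peaks the class values stayed between 110 and 184 ATAC CPM in library 1 and 115 and 184 in library 2. Neither measure followed the RNA: over the 13 classes, Pearson's r of log2 values was 0.14 and -0.43 for the 28 peaks and -0.34 and -0.34 for the start peak, given as a description of points that share libraries and depths.

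Single peaks are shown as the central 300 bases, plus strand, GRCm38, because they carried the class patterns described next. Capitals mark matches, on either strand, to short consensus letters. These were TGGGAA for Ikaros itself and AGATAA for GATA factors. For RUNX factors they were TGTGGTT, and for a PU.1 type ETS site GAGGAAGT. E boxes were searched as CAGGTG and also, as a separate form, as CAGCTG. CEBP sites were searched as TTGCNNAA. An EBF consensus was searched as well.
Ikzf1, 28.6 kb upstream, chr11:11657157-11657456: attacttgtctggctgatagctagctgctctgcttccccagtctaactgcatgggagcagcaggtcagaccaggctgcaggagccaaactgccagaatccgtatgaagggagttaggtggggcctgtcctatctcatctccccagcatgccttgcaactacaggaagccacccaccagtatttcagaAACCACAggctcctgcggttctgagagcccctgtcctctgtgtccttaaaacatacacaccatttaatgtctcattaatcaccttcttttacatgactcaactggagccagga
Ikzf1, 44.4 kb downstream, chr11:11730221-11730520: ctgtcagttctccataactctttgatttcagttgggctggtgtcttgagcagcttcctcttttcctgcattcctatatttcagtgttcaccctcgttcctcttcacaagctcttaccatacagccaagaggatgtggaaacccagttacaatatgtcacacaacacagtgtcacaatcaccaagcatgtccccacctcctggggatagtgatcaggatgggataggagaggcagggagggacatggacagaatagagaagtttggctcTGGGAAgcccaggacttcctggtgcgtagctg
Ikzf2, 32.0 kb downstream, chr1:69655047-69655346: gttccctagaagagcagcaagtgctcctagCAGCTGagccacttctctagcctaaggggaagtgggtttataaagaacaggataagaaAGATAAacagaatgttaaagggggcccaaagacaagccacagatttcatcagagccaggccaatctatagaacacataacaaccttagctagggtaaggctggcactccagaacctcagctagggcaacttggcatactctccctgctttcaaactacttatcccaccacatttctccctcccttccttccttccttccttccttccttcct
Ikzf2, 4.0 kb downstream, chr1:69683067-69683366: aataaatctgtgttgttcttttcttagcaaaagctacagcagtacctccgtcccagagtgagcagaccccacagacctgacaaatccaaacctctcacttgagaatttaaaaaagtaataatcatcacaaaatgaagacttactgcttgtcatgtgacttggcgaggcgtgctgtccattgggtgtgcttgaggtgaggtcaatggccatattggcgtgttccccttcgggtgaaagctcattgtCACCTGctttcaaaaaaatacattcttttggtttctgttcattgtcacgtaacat
Ikzf3, 30.2 kb downstream, chr11:98515496-98515795: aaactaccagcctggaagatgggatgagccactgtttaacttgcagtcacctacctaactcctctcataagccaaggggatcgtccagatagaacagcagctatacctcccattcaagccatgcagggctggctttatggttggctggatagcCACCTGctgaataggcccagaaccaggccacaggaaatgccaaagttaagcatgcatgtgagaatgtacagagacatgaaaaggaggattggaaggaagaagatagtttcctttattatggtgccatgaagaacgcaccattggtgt

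A myeloid peak lay 44.4 kb downstream of the first Ikzf1 start, in an intron (chr11:11729934-11730807; 2100 and 2804 counts). It held 31.0 (interval 26.9 to 35.5) and 33.5 ATAC CPM (30.1 to 37.2) in GMP-like, 31.8 and 41.7 in cMoP-like, 31.5 and 20.7 in cDCP-like and 27.0 and 26 in NeuP-like nuclei. In pro-B-like nuclei it held 1.51 (0.857 to 2.48) and 2.64 (1.27 to 4.86), log2 ratios of -3.81 and -3.12 against the other nuclei, and in B-like nuclei 4.15 and 3.19 ATAC CPM. LMPP-like nuclei, where Ikzf1 RNA was high, had 7.91 (5.37 to 11.2) and 6.12 ATAC CPM (3.92 to 9.10), below the 11.3 and 11.9 of HSC-like nuclei. The peak was called lower in pro-B-like, LMPP-like, EryP-like, MkP-like and pro-NK/T-like nuclei and called higher in none. Its GMP-like values, 1.93 and 1.72 times those of the other nuclei, fell short of 2-fold. Its level did not order the classes as the RNA did: of the 3 named classes with the least Ikzf1 RNA it was high in GMP-like and cMoP-like nuclei but low in MkP-like nuclei, at 6.60 and 5.89 ATAC CPM. Its central window held 1 match, to the Ikaros letters.

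A second peak, 28.6 kb upstream of Ikzf1 in an intron of Gm11999 (chr11:11656864-11657750; 1122 and 1100 counts), was open in the erythroid, megakaryocyte and basophil classes. It held 33.1 (26.7 to 40.6) and 26.3 ATAC CPM (19.9 to 34.0) in EryP-like, 22.3 and 26.7 in MkP-like and 18.6 and 23.2 in BaP-like nuclei (2.0 and 2.81 times the other nuclei, the first just at the limit), against 7.10 and 7.74 in GMP-like, 3.98 and 1.94 in NeuP-like and 0 and 2.14 in cDCP-like nuclei. HSC-like nuclei stood between them with 15.7 and 15.1. Pro-NK/T-like nuclei held 24.8 (15.3 to 37.8) and 13.2 (5.29 to 27.1) and B-like nuclei 18.2 and 12.8 ATAC CPM, so the peak was not closed in lymphoid classes. It was the only Ikzf1 peak called higher in EryP-like, MkP-like or BaP-like nuclei, where just 9, 4 and 4 of the 28 could be evaluated. Peaks at 33.9 kb and 49.4 kb, too small to be evaluated there, held 6.47 and 7.54, and 4.67 and 6.17 ATAC CPM in EryP-like nuclei. The central window of the peak 28.6 kb upstream held a RUNX match and no GATA match.

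Peaks just inside the gene were raised in pro-B-like nuclei. A peak 4.4 kb downstream (chr11:11689890-11690771; 1490 and 1309 counts) held 31.4 (28.1 to 35.0) and 34.7 ATAC CPM (29.1 to 41.2) in pro-B-like nuclei, 3.62 and 4.02 times the other nuclei, and its neighbour at 3.1 kb held 12.4 and 11.6, or 2.51 and 2.10 times. In HSC-like nuclei the same peaks held 5.96 and 6.07, and 2.07 and 2.60 ATAC CPM. At 3.1 kb NeuP-like nuclei held 8.4 and 12.7 and cDCP-like nuclei 11 and 6.43, so that the pro-B-like class was not the highest there in library 2. These were the 2 peaks of 43 evaluated at the 5 loci that were called higher in pro-B-like nuclei, beside 4.98% of all evaluated peaks. B-like nuclei had 12.5 and 19.1 ATAC CPM at 4.4 kb. The window around a second RefSeq start of Ikzf1 lies in this peak, while no GENCODE transcript of the gene starts in it. The 2 RefSeq promoters of Ikzf1 (300 bases around the start, GRCm38.p6, plus strand, CpG pairs in capitals) differ in composition, with 52 CpG pairs and 81.3% G and C in the first, and 2 CpG pairs and 49.0% in the second. Of the other members, RefSeq promoters were matched for Ikzf5 alone.
Ikzf1 first start, chr11:11685675-11685974: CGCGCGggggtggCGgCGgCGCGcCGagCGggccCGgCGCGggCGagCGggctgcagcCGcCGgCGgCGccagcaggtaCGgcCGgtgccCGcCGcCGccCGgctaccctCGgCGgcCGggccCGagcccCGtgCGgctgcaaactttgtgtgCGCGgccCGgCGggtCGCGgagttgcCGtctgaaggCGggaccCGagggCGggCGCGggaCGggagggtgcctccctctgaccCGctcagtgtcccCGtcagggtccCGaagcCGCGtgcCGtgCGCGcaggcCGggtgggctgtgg
Ikzf1 second start, chr11:11689927-11690226: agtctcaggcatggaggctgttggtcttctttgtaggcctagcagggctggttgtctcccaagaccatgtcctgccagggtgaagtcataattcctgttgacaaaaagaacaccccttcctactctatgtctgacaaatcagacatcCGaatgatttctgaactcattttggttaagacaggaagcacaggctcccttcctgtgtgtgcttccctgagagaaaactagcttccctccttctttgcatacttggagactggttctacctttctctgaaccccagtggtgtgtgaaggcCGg

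**Figure D4:**
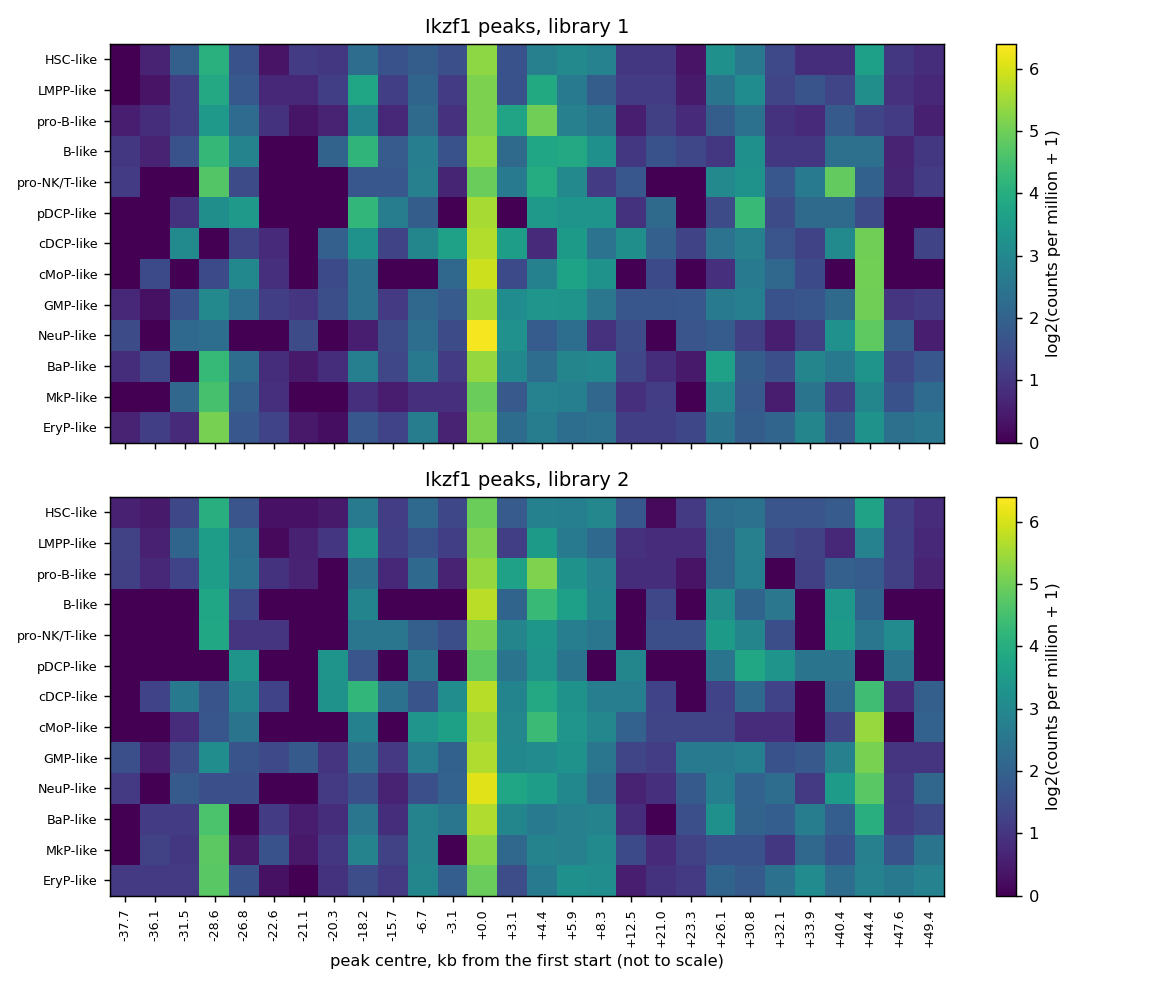
ATAC level, log2(ATAC CPM + 1) as colour, of the 28 Ikzf1 peaks (columns, ordered by distance of the peak centre from the first start in kb, not to scale) in 13 classes (rows) of library 1 (top) and library 2 (bottom). The start peak is bright in every row, the +44.4 kb peak in GMP-like, cMoP-like, cDCP-like and NeuP-like rows and the +4.4 kb peak in the pro-B-like row. The -28.6 kb peak is bright in EryP-like, MkP-like and BaP-like rows, though also in pro-NK/T-like and B-like rows.

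Further Ikzf1 peaks also varied between classes. A peak at -18.2 kb, in an intron of Gm11999 (790 and 763 counts), held 12.9 (9.58 to 17.0) and 9.69 ATAC CPM (6.86 to 13.3) in LMPP-like nuclei, against 3.89 and 5.08 in HSC-like and 4.23 and 3.90 in GMP-like nuclei. It held 17.1 and 6.38 in B-like, 18.0 and 2.24 in pDCP-like and 8.80 and 17.9 in cDCP-like nuclei, and was called lower in EryP-like nuclei, at 2.34 and 1.83. A peak at -3.1 kb (307 and 414 counts) held 11.7 and 7.86 ATAC CPM in cDCP-like and 3.43 and 11.4 in cMoP-like nuclei and was called lower in LMPP-like and pro-B-like nuclei. A peak at 40.4 kb (362 and 407 counts) held 28.3 and 10.3 ATAC CPM in pro-NK/T-like nuclei, beside 8.4 and 10.5 in NeuP-like and 4.15 and 9.57 in B-like nuclei, so that pro-NK/T-like nuclei stood highest in library 1 but not in library 2. It was called lower in LMPP-like nuclei. In LMPP-like nuclei, 4 of the 41 peaks evaluated at the 5 loci were called lower, all of them at Ikzf1, and none higher, a share of 9.76% that lay near the 8.6% of all evaluated peaks called lower. The peak at -18.2 kb, at 2.06 and 1.70 times the other nuclei, went the other way. The gene extends beyond this window, and peaks farther into it were not counted. In EryP-like nuclei 2 of 30 peaks were called higher, beside 1.79% of all peaks, and 2 lower, beside 19.6%. In MkP-like nuclei the count was 1 higher and 1 lower of 19, beside 1.33% and 11%, and in BaP-like nuclei 1 higher and 1 lower of 19, beside 0.553% and 4.02%, the lower one being the Ikzf1 peak at 4.4 kb. In NeuP-like nuclei 1 of 17 was lower, beside 14%, and in cDCP-like nuclei 0 of 12, beside 3.28%. In the pro-NK/T-like class 1 of 12 was lower, beside 5.48%.

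At Ikzf2, RNA and open chromatin mostly rose together over the classes. Like Ikzf1, both Ikzf2 and Ikzf3 extend beyond their windows, and peaks farther into these genes were not counted. The 9 peaks near Ikzf2 summed to 119 and 101 ATAC CPM in BaP-like nuclei, against 65.1 and 66.5 in the other nuclei, log2 ratios of 0.86 (0.62 to 1.10) and 0.60 (0.33 to 0.85). Pro-B-like nuclei had 42.9 and 44.7, log2 ratios of -0.73 (-0.88 to -0.59) and -0.62 (-0.85 to -0.40). Over the 13 classes, Pearson's r between log2 RNA and log2 ATAC was 0.87 and 0.88 for the 9 peaks and 0.85 and 0.92 for the 2 peaks within 1 kb of the listed starts. The order was not the same class by class. Over the 9 peaks, HSC-like nuclei of library 1 held 77.6 ATAC CPM, below EryP-like (90.1) and MkP-like nuclei (94.9), which had less RNA. Within 1 kb, BaP-like nuclei of library 2 held 47.9, below the 64.9 of pro-NK/T-like nuclei. The peak at the first start (chr1:69687010-69687921) was open in all classes, and its pro-B-like values, 29.9 and 31.7 ATAC CPM, were 0.789 and 0.859 times those of the other nuclei.

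The differences at Ikzf2 were larger at the intronic peaks. The peak 32.0 kb downstream (chr1:69654767-69655627; 739 and 802 counts) held 16.3 (10.1 to 24.9) and 17.7 ATAC CPM (11.1 to 26.6) in BaP-like nuclei and 10.9 and 10.3 in HSC-like nuclei, against 0.879 (0.402 to 1.67) and 1.32 (0.429 to 3.08) in pro-B-like nuclei. The peak 49.1 kb downstream (chr1:69637747-69638608; 442 and 466 counts) held 13.6 (7.86 to 21.9) and 19.0 (12.6 to 27.6) in MkP-like, 13.8 and 8.23 in EryP-like, 4.85 and 8.54 in LMPP-like and 8.42 and 7.43 in HSC-like nuclei. The peak 4.0 kb downstream, which overlaps an exon and lies within 1 kb of a later start (chr1:69682812-69683621; 544 and 606 counts), was highest in pro-NK/T-like nuclei at 16.5 (9.02 to 27.7) and 17.9 (8.37 to 33.3), with 0.488 and 1.85 in pro-B-like nuclei. A small peak 5.1 kb upstream, with 99 and 104 counts in all, held 9.30 and 5.89 ATAC CPM in BaP-like and 7.07 and 7.52 in pro-NK/T-like nuclei but 0 and 1.24 in HSC-like nuclei. At 32.0 kb, pro-NK/T-like nuclei held 4.13 and 5.64 ATAC CPM. Single peaks did not all follow the RNA: BaP-like nuclei, with the most Ikzf2 RNA, held 5.42 and 5.10 at 49.1 kb and 6.97 and 2.75 at 4.0 kb.

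In pro-B-like nuclei 4 of 6 evaluated Ikzf2 peaks were called lower, and 10 of 43 over the 5 loci, or 23.3%. This share lay near the 27.3% of all evaluated peaks that were called lower in this class. The peak at 49.1 kb was also the single one of 41 called higher in HSC-like nuclei, beside 2.26% of all peaks, while 2 of the 41, both at Ikzf1, were called lower, beside 8.54%. The central window at 32.0 kb held an E box and a GATA match, and those at 4.0 kb and 49.1 kb held 1 E box each.

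**Figure D5:**
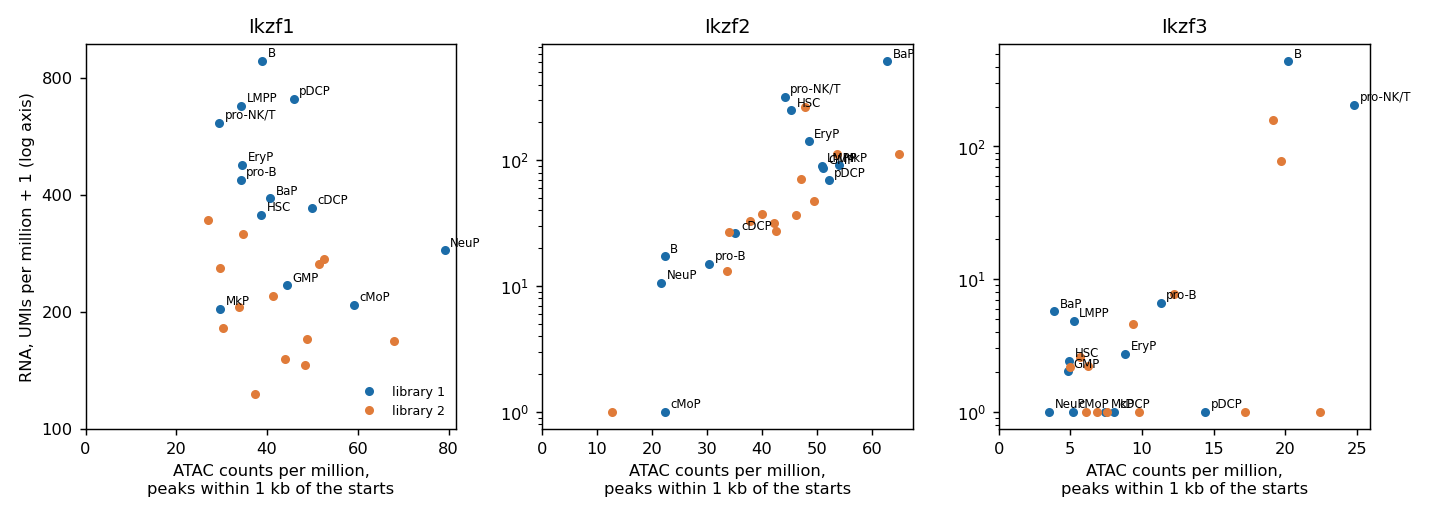
RNA level plus 1 (y axis, CPM, log axis) against ATAC CPM in peaks within 1 kb of the listed starts (x axis, from 0) for Ikzf1, Ikzf2 and Ikzf3; each point is a class in 1 library, and names mark library 1. RNA and ATAC mostly rose together for Ikzf2 (r = 0.85 and 0.92), though not class by class, but not for Ikzf1 (r = -0.34 and -0.34).

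At Ikzf3 the start peak (chr11:98545434-98546339; 897 and 924 counts) was open in the classes that carried its RNA, but not in these alone. It held 24.8 (15.3 to 37.8) and 19.7 ATAC CPM (9.67 to 35.8) in pro-NK/T-like and 20.2 (12.3 to 31.4) and 19.1 (7.02 to 41.6) in B-like nuclei, against 4.84 and 5.70 in GMP-like and 4.92 and 4.95 in HSC-like nuclei. pDCP-like nuclei had 14.4 and 22.4 ATAC CPM on 16 and 10 counts, and were the highest class in library 2. They held 0 Ikzf3 UMIs in both libraries, which allows up to 42.2 and 97.8 CPM, beside pro-NK/T-like levels of 205 and 77.0 CPM. A level like that of pro-NK/T-like nuclei lay above the limit in library 1 but below it in library 2. cDCP-like nuclei, also with 0 UMIs (up to 31.0 and 27.1 CPM), had 8.07 and 17.2 ATAC CPM on 11 and 24 counts. Pro-B-like nuclei had 11.3 (9.36 to 13.6) and 12.2 (8.90 to 16.2), log2 ratios of 0.74 (0.42 to 1.05) and 0.82 (0.35 to 1.27).

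Downstream, peaks of the pro-NK/T-like and pro-B-like classes lay inside the gene. Peaks at 32.7 kb and 48.3 kb held 7.07 and 6.58, and 9.43 and 8.46 ATAC CPM, in pro-NK/T-like nuclei, on 151 and 162, and 191 and 159 counts in all nuclei. A peak at 30.2 kb that overlaps an exon (chr11:98515236-98516055) had 251 counts in library 1, of which 191 came from pro-B-like nuclei, and 125 in library 2, of which 67 did. This amounts to 9.33 (7.55 to 11.4) and 8.85 ATAC CPM (6.11 to 12.4), or 15.2 and 18.5 times the other nuclei, and was noticed after its values were seen, since it fell under the minimum of 200 counts set for named peaks. In the same pro-B-like nuclei Ikzf3 RNA was at 5.64 and 6.75 CPM. The peak held 3.63 and 0 ATAC CPM in B-like nuclei (7 and 0 counts), where the RNA was 436 and 156 CPM. It was called lower in GMP-like nuclei, where this held for 2 of the 57 peaks evaluated at the 5 loci, beside 2.65% of all peaks. That call was made against nuclei that include the pro-B-like ones, which hold most of the peak's counts. GMP-like nuclei held 0.378 and 0.523 ATAC CPM, beside 0.907 and 0.124 in HSC-like nuclei. The call thus does not show that GMP-like nuclei lay below the remaining classes at this peak.

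Sums over the windows of Ikzf3, Ikzf4 and Ikzf5 mostly describe their neighbours. Peaks within 1 kb of another gene's starts held 73.6% and 73.6% of the counts around Ikzf3 (Zpbp2 and Ormdl3), 76.1% and 73.5% around Ikzf4 (Rps26, Gm26876, Suox, Rab5b, Cdk2 and Pmel) and all of those around Ikzf5, where the listed starts of Fgfr2 reach across every peak. The Ikzf3 peak called higher in EryP-like nuclei lay at Ormdl3, 42.7 kb upstream. At Ikzf4, a peak among its listed starts, 5.4 kb from the first one and in an intron of Gm49782 (chr10:128663492-128664374; 502 and 617 counts), held 18.6 (11.9 to 27.7) and 16.9 ATAC CPM (10.5 to 25.7) in BaP-like, 11 and 12.9 in cDCP-like and 1.37 and 0.661 in pro-B-like nuclei, while BaP-like nuclei had 0 and 1 Ikzf4 UMI. This peak lies outside the gene span given above, on its upstream side, and no GENCODE transcript of Ikzf4 starts in it. In the label below, "downstream" is counted from the first listed start, which also lies upstream of that span. The central window of the peak held a RUNX, an E box and a PU.1 type ETS match:
Ikzf4, 5.4 kb downstream, chr10:128663783-128664082: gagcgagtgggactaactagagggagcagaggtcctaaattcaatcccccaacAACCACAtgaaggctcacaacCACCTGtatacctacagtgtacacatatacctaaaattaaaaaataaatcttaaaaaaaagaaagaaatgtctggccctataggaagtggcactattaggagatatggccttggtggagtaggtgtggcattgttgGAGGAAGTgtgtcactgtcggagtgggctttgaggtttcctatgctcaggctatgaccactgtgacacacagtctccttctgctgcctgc
The peak at which 7 GENCODE transcripts of Ikzf4 start, 23.4 kb from the first listed start (chr10:128645551-128646326; 833 and 825 counts), overlaps an exon of Gm26876 as well. It held 17.7 (9.90 to 29.2) and 12.2 (4.71 to 25.8) in pro-NK/T-like, 12.6 and 12.5 in HSC-like and 5.67 and 6.65 ATAC CPM in GMP-like nuclei, and was called in no class. The Ikzf4 peak at 0.2 kb (602 and 754 counts) held 8.31 and 12.8 in B-like and 2.71 and 3.53 in BaP-like nuclei. Those at 15.3 kb (130 and 148 counts) and 6.8 kb (140 and 182 counts) stayed at or below 3.12 ATAC CPM in every class. At Ikzf3, the peak at -9.5 kb in an exon of Zpbp2 held up to 6.97 ATAC CPM (BaP-like) in library 1 and 4.78 (B-like) in library 2. At Ikzf4, the intergenic peak at 66.6 kb held 5.42 and 4.10 in pro-B-like nuclei, and the peak at -33.4 kb in an exon of Cdk2 held 3.98 and 9.68 in NeuP-like against 1.47 and 1.06 in pro-B-like nuclei, where it was called lower. At Ikzf5, the peak at 39.3 kb at the start of Pstk held 56.6 and 38.5 in pro-NK/T-like nuclei, the highest class in both libraries, and the peak at 38.0 kb held 8.91 and 6.67 in BaP-like against 0.635 and 1.19 in pro-B-like nuclei, where it was called lower. The peak at the Ikzf5 start, shared with the start of Acadsb, held 5445 and 5403 counts, with 92.8 and 66.4 ATAC CPM in NeuP-like and 43.4 and 38.0 in GMP-like nuclei.

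In the central 300 bases of the 86 peaks, letters of the searched motifs were about as frequent as in the 174282 peaks with sequence. The Ikaros letters stood in 23 of the 86 peaks (26.7%, all peaks 25.7%), E boxes in 37.2% (34.9%), RUNX in 16.3% (12%), GATA in 11.6% (13.3%), the ETS letters in 11.6% (9.8%), CEBP in 15.1% (14.2%) and EBF in 0 of 86 (1.05%). Of the 23 peaks with the Ikaros letters, 11 lay near Ikzf1 and 7 near Ikzf3. The printed Ikzf3 window at 30.2 kb held 1 E box.

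Genes that work with the family were followed as 4 lists, whose genes were open to the clustering and include markers of the classes (Flt3, Dntt, Il7r, Igll1, Vpreb1), so that their class differences are descriptions. Of 13 NuRD subunits, all 13 could be evaluated in LMPP-like nuclei and 2 were called higher there, beside 2.39% of all evaluated genes: Chd3, a remodelling ATPase, with 130 and 92.5 CPM (2.0 and 2.76 times the other nuclei), and Mta3, a scaffold subunit, with 115 and 40.8 CPM (2.92 and 2.25 times). Neither gene could be evaluated in pro-NK/T-like nuclei, which held 169 and 94.1 CPM of Chd3 (2.47 and 2.55 times) and 113 and 25.7 CPM of Mta3 (2.55 and 1.31 times). The main ATPase Chd4 was at 365 and 238 CPM in HSC-like, 373 and 271 in LMPP-like and 365 and 240 in pro-B-like nuclei. In NeuP-like nuclei 3 of 12 NuRD subunits were called lower, Chd3, Mta1 and Mta2, beside 18.2% of genes, and the list's median log2 ratio was -0.66 and -0.86 beside -0.76 and -0.55 for all evaluated genes. Of 6 other corepressors, Hdac7 alone was called higher, in BaP-like (468 and 238 CPM), EryP-like (401 and 225 CPM) and pro-B-like nuclei (312 and 220 CPM), beside 1.29%, 2.84% and 4.09% of all evaluated genes. It was called lower in cDCP-like (33.7 and 22.0 CPM) and NeuP-like nuclei (14.4 and 37.3 CPM), beside 3.31% and 18.2% of genes. Ctbp2, a corepressor, was called lower in pro-B-like nuclei (6.20 and 4.05 CPM), beside 4.68%. Of the 5 genes of the cereblon ligase, through which thalidomide analogs degrade Ikaros and Aiolos, 1 was called in any class, Cul4a, lower in NeuP-like nuclei, as were 18.2% of genes. Crbn itself could be evaluated in GMP-like nuclei alone, where it was not called and had 15.3 and 6.98 CPM.

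The list of 14 known lymphoid target genes of Ikaros differed between classes. In LMPP-like nuclei 4 of 8 evaluated genes were called higher, beside 2.39% of all evaluated genes: Flt3, a cytokine receptor (696 and 396 CPM), Dntt, the terminal transferase of V(D)J joining (445 and 268 CPM), Notch1 (212 and 143 CPM) and the interleukin receptor gene Il7r (93.4 and 50.4 CPM). The surrogate light chain gene Igll1 was called lower, as were 1.86% of genes, against nuclei that include the pro-B-like ones, where it was high. Its LMPP-like level, 16.6 and 3.6 CPM, was not below the HSC-like level of 12.7 and 2.33 CPM. In pro-B-like nuclei 5 of 8 were called higher, Igll1 (186 and 103 CPM), Vpreb1 (337 and 204 CPM), Dntt, Il7r and Ccnd3, and none lower, while 4.09% of all evaluated genes were called higher. The median log2 ratio of the list was 0.90 and 1.16 in LMPP-like and 1.92 and 2.08 in pro-B-like nuclei, beside 0.14 and 0.15, and 0.09 and 0.14, for all evaluated genes. In GMP-like nuclei 6 of 9 were called lower, beside 3.83% of genes, with a median of -1.64 and -1.52 beside -0.15 and -0.08. In EryP-like nuclei 5 of 7 were called lower, beside 4.34% of genes, with a median of -1.74 and -1.12 beside 0.12 and 0.15. For both classes the other nuclei include the LMPP-like and pro-B-like nuclei, where genes of the list were high. Whether the calls relate to Ikzf1 levels was not tested. In pro-NK/T-like nuclei only 3 genes could be evaluated, of which Dntt and Flt3 were called lower and Ccnd3, a cyclin, higher, beside 3.84% and 2.11% of genes, with a median of -1.76 and -1.33. In HSC-like nuclei 3 of 8 were called lower (Igll1, Vpreb1 and Il7r), beside 1.92%. Lower calls also held for 3 of 6 in BaP-like nuclei, 3 of 6 in MkP-like, 3 of 7 in NeuP-like and 1 of 4 in cDCP-like nuclei, beside 3.31%, 3.54%, 18.2% and 3.31% of genes, and none of the list was called higher in these classes.

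Among 4109 genes that reached 200 UMIs in both libraries, those whose log2(CPM + 1) over the 13 classes was most like Ikzf1 were Calm2, a calmodulin gene (Pearson's r = 0.85 and 0.77), Ctse (0.78 and 0.76) and Jmjd1c (0.83 and 0.70). For Ikzf2 they were Def6 (0.84 and 0.83), Ccdc12 (0.82 and 0.84) and Cpq (0.82 and 0.82). Ranked by Spearman's rho, Calm2 was named again and the other genes were not. The genes were picked by r in these same classes and libraries, so the r values only describe that choice.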

How the data were processed

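Nuclei of Lin-cKit+ bone marrow cells were profiled by 10x multiome sequencing. The deposited matrix holds raw counts, which per the study's methods the authors made with Cell Ranger ARC 2.0.0 on GRCm38 (mm10). The submitters' processing notes also name Seurat 4.0.3 and Signac 1.3.0. The matrix held no mitochondrial gene rows, and it pools both groups under barcode suffixes that no label ties to a group, so groups were not compared. Classes were described without a test, since they were clustered from the same nuclei. Kept nuclei had 200 genes or more and ATAC totals between 1000 and 50000. RNA (30 principal components) and ATAC (latent semantic indexing, components 2 to 30) were corrected between libraries with anchors, joined by weighted nearest neighbours and clustered at resolution 0.8 (Seurat 5.3.0, R 4.3.3), leaving out the members and their peaks. Such a correction may also take away differences that are real. A name needed at least 3 markers raised by a log2 ratio of 1 and 1 marker among the 10 leading genes. No doublet caller was run. Counts were summed per class and library and scaled to all UMIs or all peak counts (Python 3.11.15, scipy 1.17.1). Peak calls needed at least 20 counts expected in the class in each library. Gene calls and RNA ratio intervals were run on simulated Poisson counts of genes for the BaP-like class alone. Peak calls and ATAC intervals were not simulated. GENCODE and RefSeq annotations of GRCm38 gave gene spans, positions and sequence. Named peaks were those within 1 kb of a member's starts and, per locus, the 3 with at least 200 counts per library and the widest class range, to which called peaks and small peaks were added after their values were seen. Named genes were the 3 most like each member with at least 100 UMIs per library. The members and lists were chosen with earlier results of these data known. Of the peaks that this rule names, 1 is not reported here.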

Additional observations from a re-analysis of the deposited data

How the results depend on the processing

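No paired analysis was possible because the results come from no test: groups were not compared, and a class set against the nuclei it was clustered with is no test. Of 218 recomputed values behind the main statements, 185 stayed within the counting interval of the value as reported and 33 moved, none of them with a change of sign. Log2 RNA ratios of Ikzf1 in GMP-like nuclei were -1.47 and -0.59 without correction between libraries, and -0.59 in library 2 with at least 500 genes. With at least 500 genes, which left 4169 and 1988 nuclei, the Ikzf2 ratio in BaP-like nuclei was 2.42 and 2.40 and in HSC-like nuclei of library 2 it was 1.16, and the Ikzf2 ATAC ratio in BaP-like nuclei of library 1 was 0.52. At resolution 0.4 the Ikzf2 ratio in HSC-like nuclei was 1.54 and 1.45 and its share of family UMIs 23.6% and 22.3%, and with ATAC-only clusters the ratio was 1.54 in library 2. Ratios of ATAC counts depended on the distance counted. For Ikzf2 in BaP-like nuclei of library 2 they were 0.32 within 10 kb and 0.22 within 1 kb. In pro-B-like nuclei they were -0.46 and -0.38 within 10 kb, -0.51 and -0.32 within 1 kb, and -0.95 within 100 kb in library 1. For Ikzf3 in B-like nuclei they were 1.20 within 10 kb (library 1), 1.22 within 100 kb (library 2) and 1.46 and 1.43 within 1 kb, and in pro-NK/T-like nuclei 1.01 and 1.07 within 10 kb and 1.75 and 1.48 within 1 kb. The ratio of library 2 over library 1 for Ikzf1 and Ikzf2 was -0.85 and -0.84 without the ribosomal RNA locus, -0.50 and -0.49 with median-of-ratios scaling, which also turned Ikzf5 to 0.13, and -1.04 and -1.30 with at least 500 genes. Leaving out the 5% of nuclei with the most UMIs or peak counts moved none of the 20 of these values it was run on. Some alternatives gave no value for a class that could then not be named, such as B-like nuclei with at least 500 genes or LMPP-like nuclei at resolution 0.4.

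Among values of single genes and classes, 16 changed sign. With at least 500 genes no B-like class could be named, and the Ikzf3 RNA ratio of pro-B-like nuclei in library 1 became 2.97. The same limit turned ATAC ratios in library 2 for Ikzf3 in BaP-like nuclei (-0.06) and in library 1 for Ikzf4 in BaP-like (-0.07) and Ikzf5 in cMoP-like nuclei (-0.08). Within 10 kb the Ikzf1 ratio of pro-B-like nuclei in library 1 became 0.31, and within 100 kb the Ikzf3 ratio of EryP-like nuclei in library 1 became -0.07. For Ikzf4, whose window holds other promoters, the ratios within 1 kb turned to -0.06 and -0.33 in EryP-like, -0.95 and -1.04 in NeuP-like, -0.22 and -0.43 in pro-B-like and 0.01 in GMP-like nuclei (library 1), and within 10 kb to -0.58 and -0.70 in NeuP-like nuclei. The cause of these changes was not tested. Depth limits the small classes most: pDCP-like nuclei held 13 Ikzf1 UMIs in library 2, B-like nuclei 12 Ikzf3 UMIs, and the top class of Ikzf4 and of Ikzf5 could not be told apart from any other single class. The Ikzf4 ratio of pro-NK/T-like nuclei over all other nuclei had intervals above 0, of 0.61 to 6.07 and 0.34 to 5.54, but rested on 2 UMIs in each library.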
